A study of Rattus norvegicus with 10 samples.

Results

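The genes described here build the intercalated disc, the junction at which cardiomyocytes meet end to end, or carry current across it. They are Dsp, Jup, Pkp2 and Dsg2 of the desmosome, Cdh2 and Ctnna3 of the adherens junction, the connexin genes Gja1 and Gjc1 of the gap junction, and the scaffold gene Tjp1. All probe sets whose annotation names exactly one of these 9 genes were taken, which gave 14 of the 31099 probe sets of the Affymetrix rat expression array used. Ctnna3 had none under this rule and was not analysed here. Of the 14 probe sets, 10 passed the filter on brightness and were tested, and each of the other 8 genes had at least 1 of these.

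Left ventricular RNA was measured 3 days after gene transfer in 10 samples, 1 array each. In 5 samples, called p38 here, the transferred genes were MKK3bE, a kinase mutant that is active without a stimulus and phosphorylates p38, and wild-type p38α, a stress-activated protein kinase. In the other 5, called LacZ, the transferred gene was that of bacterial β-galactosidase, so that both groups underwent gene transfer. Body weight was 250 to 300 g for all samples. Male sex and the Sprague-Dawley strain are given for 9 of them and not for LacZ 1. Whether each array stands for its own rat is not stated, and p-values then reflect only the variation among these samples, which may be technical. The labels used here do not name the vector, its promoter or the share of cells reached, and the ventricle was sampled as whole tissue.

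At the disc, desmosomes tie the intermediate filaments of neighbouring cells together, adherens junctions tie their actin filaments, and gap junctions let ions pass so that excitation spreads. The 3 structures share proteins and neighbours: plakoglobin sits in desmosomes and adherens junctions, and the scaffold protein of Tjp1 binds the main ventricular connexin. Loss-of-function variants of desmosomal genes are a known cause of arrhythmogenic cardiomyopathy in people.

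Levels below are log2(signal + 16) after quantile normalization between arrays, and a fold change is p38 over LacZ on that scale, where 16 is a constant added to every signal. Differences are given as log2 fold change ± standard error from limma, with 5 arrays in each group and Benjamini-Hochberg adjustment over all 18625 tested probe sets and a threshold of 0.05. Where a gene had several tested probe sets, the brightest stood for it, and all are reported.

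In p38 ventricles 4 of the 8 genes fell, none rose and 4 did not pass. These were Dsp, Jup, Cdh2 and Tjp1, of which Cdh2 fell by 16.4% and Jup fell by 26.1%, with Dsp and Tjp1 in between. Over all named genes, 6.23% were called lower and 11.6% higher by the same test. The 8 genes were chosen with earlier results of these data known, so this comparison is no test of them as a set. The median log2 fold change of the 8 genes was -0.27, beside 0.00 over the 10596 named genes, and 6 of the 8 values were negative. Over probe sets, 5 of the 10 fell and none rose, where 7.40% of all tested probe sets fell. The 10 lay at percentiles 75.9 to 99.8 of all probe sets by mean level, and these shares take in dimmer ones. With the dimmest 60% left out, 1323 of 12417 probe sets were called lower, which is a larger share. Only Dsp had groups that did not overlap, which was the case with p38 lower for 5.43% of all tested probe sets. In whole tissue, fewer cells of a type and less RNA per cell cannot be told apart.

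**Figure D1:**
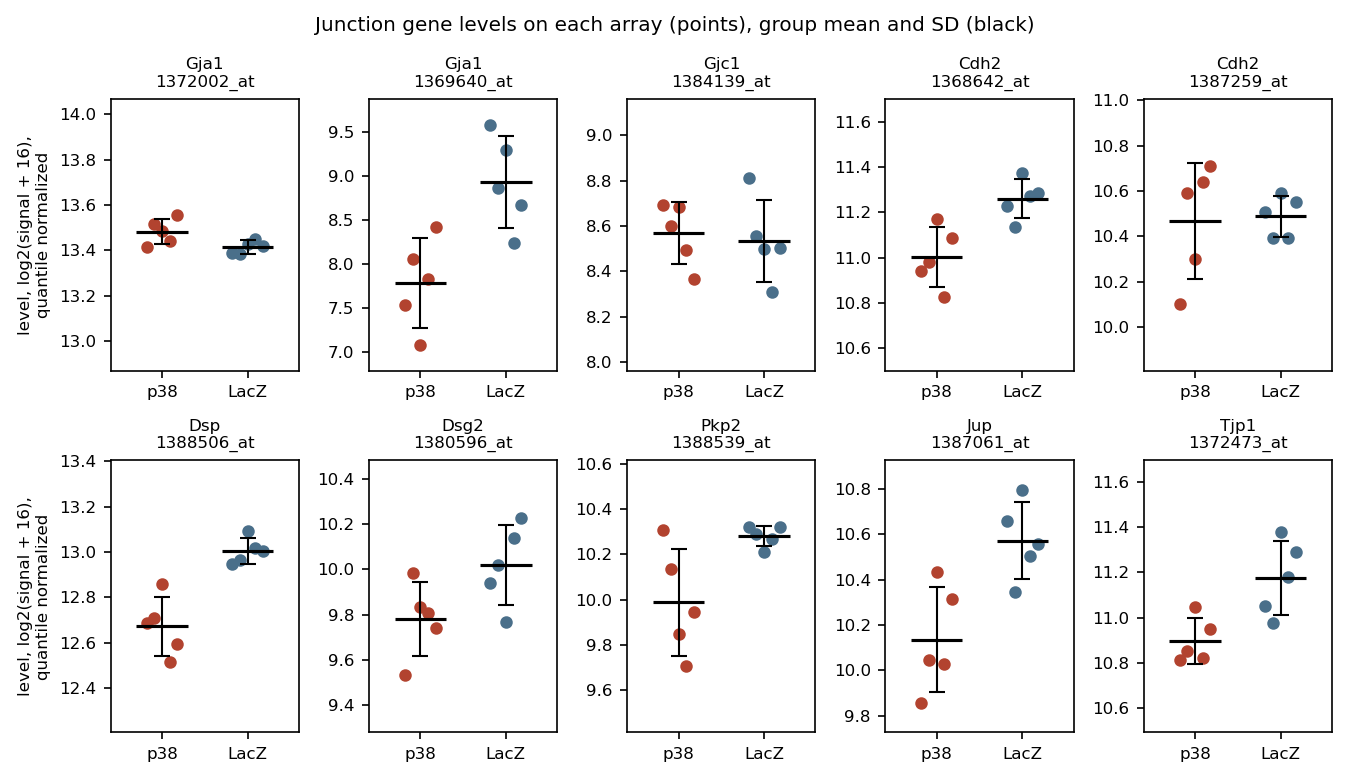
Levels of the 10 tested junction probe sets on each array, as log2(signal + 16) after quantile normalization, p38 (red) left and LacZ (blue) right, with the group mean and SD in black (n = 5 each). All 5 p38 points of Dsp lie below the LacZ points, for Jup, Cdh2 1368642_at, Tjp1, Pkp2 and Gja1 1369640_at 4 of 5 do, those of Gjc1 lie among the LacZ points, and those of Cdh2 1387259_at spread to both sides of them.

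Desmoplakin, the product of Dsp, anchors desmin filaments to the desmosomal plaque. The Dsp probe set 1388506_at stood at 12.69, 12.71, 12.86, 12.51 and 12.60 on p38 arrays 1 to 5, against 12.95, 12.96, 13.09, 13.02 and 13.01 on LacZ arrays 1 to 5. The highest p38 array, p38 3, lay below the lowest LacZ array, LacZ 1. The log2 fold change was -0.33 ± 0.06 (95% interval -0.47 to -0.20, adjusted p = 0.00993), so that Dsp fell by 20.6% on this scale. The fall held with each array left out in turn, the highest adjusted p being 0.0336. Without normalization between arrays the deposited signals of the 2 groups overlapped, at 5762 to 8008 in p38 and 7685 to 8244 in LacZ, and the test was not passed there (-0.24 on the log2 scale, adjusted p = 0.136).

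Plakoglobin, encoded by Jup, binds the tails of desmosomal and classical cadherins. Jup (1387061_at) stood at 9.86, 10.05, 10.43, 10.03 and 10.31 in p38 and at 10.66, 10.35, 10.80, 10.50 and 10.56 in LacZ. Array p38 3 was the only p38 array above a LacZ array, LacZ 2, and the other 4 lay below all LacZ arrays. Jup had the largest change among the 8 genes at the brightest probe set, with a log2 fold change of -0.44 ± 0.12 (interval -0.69 to -0.19, adjusted p = 0.0260), and fell by 26.1%. The call was lost without p38 2, p38 4, LacZ 1 or LacZ 3, with adjusted p from 0.0606 to 0.0691, and the log2 fold change then ran from -0.42 to -0.38.

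Plakophilin-2, encoded by Pkp2, links desmosomal cadherins to desmoplakin. Pkp2 (1388539_at) stood at 10.31, 10.14, 9.85, 9.71 and 9.95 in p38 and at 10.32, 10.29, 10.21, 10.27 and 10.32 in LacZ. Array p38 1 lay among the LacZ arrays, which were close together, and the other 4 p38 arrays lay below all of them. Pkp2 did not pass, with a log2 fold change of -0.29 ± 0.10 (interval -0.51 to -0.07, adjusted p = 0.0681). Without p38 1 it passed, at -0.37 with an adjusted p = 0.0117.

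Desmoglein-2, encoded by Dsg2, is a desmosomal cadherin of cardiomyocytes. Dsg2 (1380596_at) stood at 9.54, 9.99, 9.83, 9.81 and 9.74 in p38 and at 9.94, 10.02, 9.77, 10.14 and 10.23 in LacZ. The groups overlapped, since LacZ 3 lay below 3 of the p38 arrays. The log2 fold change was -0.24 ± 0.10 (interval -0.46 to -0.01) and did not pass (adjusted p = 0.132), and this gene passed in none of 30 other settings.

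Promoter sequences of the RefSeq table (assembly GRCr8) were read for 5 of the 9 genes, namely Gja1, Dsp, Jup, Ctnna3 and Tjp1. The listed starts of Ctnna3 and Tjp1 lie 60701 and 179658 bases inside the outermost annotated start, so their windows do not cover the sequence before that start. The 250 bases before the listed start were searched on both strands for AP-1 (TGANTCA), CRE (TGACGTCA), MEF2 (CTA and TAG with any 4 bases between), E-box (CAGGTG), GC box (GGGCGG) and TATA box (TATAAA) letters. The E-box letters were found in Dsp and Jup and in 15.9% of the 33469 promoters of the table. GC box letters were found in the same genes, 4 times in Dsp and once in Jup, and in 30.5% of promoters. The stretches of 30 bases around the E-box are shown because Dsp and Jup both fell. Capitals mark the CAGGTG and GGGCGG letters, which do not overlap.
Dsp: gaagaagcgggcCAGGTGtggcctgcgcgc
Jup: gcggtttcagggCAGGTGaGGGCGGgtgcc
The Dsp stretch lies at chr17:26877189-26877218 on the minus strand and that of Jup at chr10:85827513-85827542 on the minus strand. The E-box letters began 85 bases before the start in Dsp and 101 in Jup. The listed starts of Dsp and Jup lie 298 and 452 bases inside the outermost annotated start of the gene. The windows of 250 bases of both genes therefore also lie inside the annotated gene and do not cover the sequence before that start. The match is a description of letters in this window, and binding of a factor was not measured.

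N-cadherin, encoded by Cdh2, is the classical cadherin that joins cardiomyocytes at the adherens junction. The brightest Cdh2 probe set, 1368642_at, stood at 10.94, 10.98, 11.17, 10.83 and 11.09 in p38 and at 11.23, 11.14, 11.37, 11.27 and 11.28 in LacZ. Array p38 3 lay just above LacZ 2, and the other 4 p38 arrays lay below all LacZ arrays. The log2 fold change was -0.26 ± 0.08 (interval -0.42 to -0.09, adjusted p = 0.0372), so that Cdh2 fell by 16.4% at this probe set. The call was lost without p38 2, p38 4, LacZ 1, LacZ 3, LacZ 4 or LacZ 5 (adjusted p from 0.0649 to 0.0940).

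The second tested Cdh2 probe set did not pass. Probe set 1387259_at stood at 10.10, 10.59, 10.30, 10.64 and 10.71 in p38 and at 10.51, 10.39, 10.59, 10.39 and 10.55 in LacZ. The p38 arrays spread to both sides of the LacZ arrays, and the log2 fold change was -0.02 ± 0.11 (interval -0.26 to 0.22, adjusted p = 0.920). Within each array, the log2 ratio of the deposited signals of 1387259_at over 1368642_at averaged -0.54 ± 0.32 in p38 and -0.79 ± 0.08 in LacZ (SD, n = 5 each), a difference of 0.25 (two-sided exact permutation p = 0.151, also after adjustment over the 2 such ratios computed). The fall of Cdh2 therefore rests on 1 of its 2 tested probe sets, and the 2 were not shown to differ.

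The protein of Tjp1, a zonula occludens scaffold, binds connexins, catenins and actin at the disc. Tjp1 (1372473_at) stood at 10.81, 10.86, 11.05, 10.82 and 10.95 in p38 and at 11.05, 10.98, 11.38, 11.18 and 11.29 in LacZ. Array p38 3 lay above LacZ 2 and almost level with LacZ 1, and the other 4 p38 arrays lay below all LacZ arrays. The log2 fold change was -0.28 ± 0.09 (interval -0.46 to -0.09, adjusted p = 0.0431), and Tjp1 fell by 17.6%. The call held without p38 3 or LacZ 2 and was lost without any 1 of the other 8 arrays, with adjusted p from 0.0541 to 0.105.

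**Figure D2:**
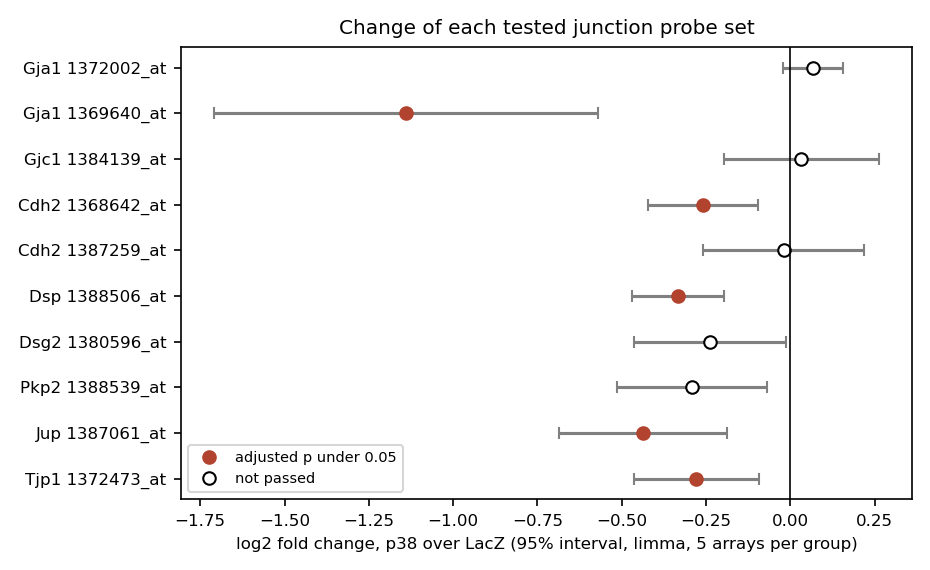
Log2 fold change of p38 over LacZ for each tested junction probe set, with its 95% interval (limma, 5 arrays per group); filled points passed at an adjusted p under 0.05. The 5 filled points all lie below 0, and the widest interval is that of Gja1 1369640_at, at -1.71 to -0.57.

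The 2 tested probe sets of the connexin gene Gja1 gave different results. Gja1 encodes the main connexin of ventricular cardiomyocytes, and its brightest probe set, 1372002_at, stood at 13.41, 13.52, 13.48, 13.44 and 13.55 in p38 and at 13.39, 13.38, 13.43, 13.45 and 13.42 in LacZ. The groups overlapped, and the 3 highest arrays were p38 5, p38 2 and p38 3. By mean level this probe set ranked 50 from the top, with deposited signals of 9353.5 to 12574.8. The highest signal of any probe set on an array was 16197.6 to 18608.4. Whether a level so near the top of the scale limits the change that this probe set can show was not tested. The log2 fold change was 0.07 ± 0.04 (interval -0.02 to 0.16) and did not pass (adjusted p = 0.269). Its sign followed the scaling, with -0.01 under cyclic loess, -0.08 under median centring and 0.03 with the signals as deposited.

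The second tested Gja1 probe set fell. Probe set 1369640_at stood at 7.53, 8.06, 7.09, 7.83 and 8.42 in p38 and at 9.57, 8.86, 9.29, 8.24 and 8.67 in LacZ. Array p38 5 lay above LacZ 4, and the other 4 p38 arrays lay below all LacZ arrays. The log2 fold change was -1.14 ± 0.26 (interval -1.71 to -0.57, adjusted p = 0.0163), which is a level 0.454 times that of LacZ. Each array left out in turn kept the call, with adjusted p from 0.0173 to 0.0481, while the signals as deposited gave -0.96 with an adjusted p = 0.0577.

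The 2 Gja1 probe sets differed in their measured change, with 1372002_at near the top of the scale. On each array, the log2 ratio of the deposited signals of 1369640_at over 1372002_at was -6.09, -5.40, -6.58, -5.49 and -4.94 in p38 and -3.81, -4.72, -4.43, -5.48 and -4.79 in LacZ. Only LacZ 4 fell among the p38 arrays. The ratio in p38 was 0.481 times that in LacZ, a difference of -1.05 (two-sided exact permutation p = 0.0238, adjusted over the 2 ratios computed 0.0476, with 0.00794 the smallest value 252 splits allow). The position of either probe set along the transcript was not available from the tables used here, and 1 gene-level direction for Gja1 cannot be given from these values.

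**Figure D3:**
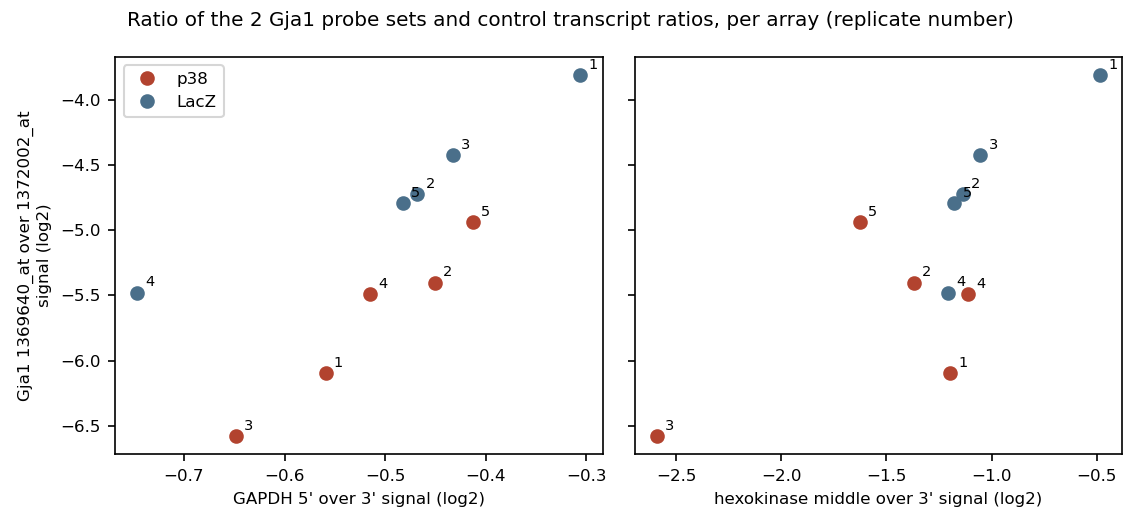
Log2 ratio of Gja1 1369640_at over 1372002_at on each array (vertical axis) against the log2 ratio of control probe sets on the same array, GAPDH 5' over 3' at left and hexokinase middle over 3' at right; red points are p38 and blue points LacZ, and numbers are replicate numbers. At left, points of each group rise together and the red ones lie below the blue ones where their GAPDH ratios meet, with LacZ 4 alone at the far left.

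The Gja1 ratio moved with measures of transcript completeness. These are ratios between probe sets for the 5' end, the middle and the 3' end of control transcripts, which fall where RNA or labelled product is cut short. Over deviations of the 10 arrays from their group means, the Gja1 ratio followed the log2 GAPDH 5' over 3' ratio with Pearson r = 0.931 (exact permutation p within groups 6.94e-05, the smallest 14400 orders can give; adjusted over 6 control ratios 0.000417) and Spearman rho = 0.952 (exact permutation p = 0.000556, adjusted 0.00333). Without LacZ 4 and p38 3, the arrays farthest from the median, r was 0.929. The actin 5' over 3' and middle over 3' ratios gave r = 0.885 and 0.902 (rho 0.770 and 0.830, adjusted exact permutation p of r 0.00556 for both). For the other 3 control ratios r was 0.370 to 0.632 and the adjusted exact permutation p 0.0862 or more.

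Neither the GAPDH nor the hexokinase ratio passed a test between groups. GAPDH 5' over 3' was 0.638 to 0.751 in p38 and 0.596 to 0.809 in LacZ, a log2 difference of -0.03 (two-sided exact permutation p = 0.738, adjusted over 6 ratios 0.943). Hexokinase middle over 3' was 0.166 to 0.462 in p38 and 0.433 to 0.714 in LacZ, a log2 difference of -0.57 (two-sided exact permutation p = 0.0635, adjusted 0.381). The hexokinase middle signal was 22.4 on p38 3, below the signal of 39.6 at the brightness limit. It was 61.4 to 88.9 on the other p38 arrays and 71.5 to 220.6 in LacZ, so this ratio rests partly on dim signals. With the GAPDH ratio as a covariate 1369640_at fell by 1.03 on the log2 scale (adjusted p = 0.00555), and with the hexokinase ratio as a covariate its log2 fold change was -0.77 and did not pass (adjusted p = 0.0772). The part of transcript completeness in the group difference of this probe set was not tested beyond these fits.

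Gjc1 encodes the connexin typical of the sinoatrial and atrioventricular nodes and is low in working ventricle. Gjc1 (1384139_at) stood at 8.69, 8.60, 8.68, 8.49 and 8.37 in p38 and at 8.81, 8.55, 8.50, 8.31 and 8.50 in LacZ. Both groups covered the same range, and the log2 fold change was 0.03 ± 0.11 (interval -0.20 to 0.26, adjusted p = 0.857).

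The RefSeq promoter window of Gja1 is shown for its AP-1 letters, the motif of Fos and Jun factors. The letters TGAGTCA, in capitals, began 58 bases before the listed start, and AP-1 letters were found in 6.34% of all promoters of the table. The windows of Dsp and Jup held no AP-1 letters.
Gja1: cctccttccagtTGAGTCAgtggcttgaaa
This stretch lies at chr20:36302494-36302523 on the plus strand of GRCr8, and the listed start lies 74 bases inside the outermost annotated start. The AP-1 letters therefore lie inside the annotated gene. Binding of a factor was not measured, and a part of this motif in the values of Gja1 was not tested. CRE, MEF2 and TATA box letters, held by 1.59%, 3.41% and 12.9% of promoters, were found in none of the windows of Gja1, Dsp and Jup. The windows of Ctnna3 and Tjp1, deep inside those genes, held none of the 6 motifs.

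The 4 probe sets too dim to be tested were 1369639_at of Gja1, 1378271_at of Cdh2, 1392258_at of Dsp and 1395337_at of Tjp1. Their highest level on any array was 5.79, where the filter set its limit at a mean of 5.80, equal to a signal of 39.6. Cdh2 1378271_at averaged 5.11 ± 0.48 in p38 and 5.54 ± 0.18 in LacZ, and the other 3 averaged 4.72 to 5.11 in p38 and 4.64 to 5.06 in LacZ. None of them had groups that did not overlap.

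Scaling between arrays set how many of the 8 genes passed, as the plot of 5 scalings shows. Cyclic loess called Dsp and Jup, centring on cardiomyocyte markers called Dsp and Jup, median centring called Dsp, and the signals as deposited called none, where 4 passed after quantile normalization. The log2 fold changes of Dsp, Jup, Cdh2, Tjp1, Pkp2 and Dsg2 were negative in each of these 5 settings. The median log2 fold change over all tested probe sets was 0.11 with the signals as deposited and -0.03 after quantile normalization.

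**Figure D4:**
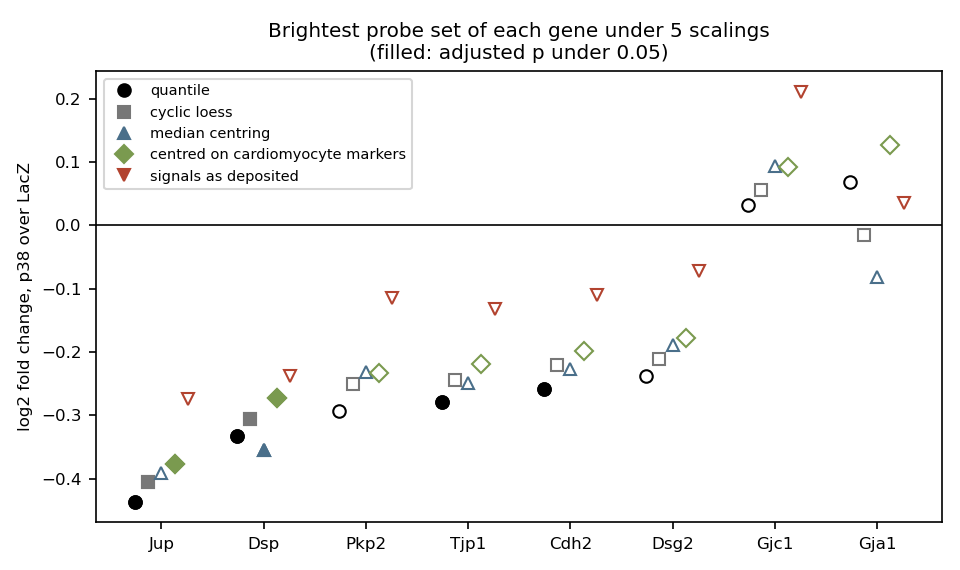
Log2 fold change of p38 over LacZ at the brightest probe set of each of the 8 genes under 5 scalings between arrays; filled symbols passed at an adjusted p under 0.05. The signals as deposited (red triangles) give values nearest 0 for the 6 genes at left, all still below 0, and the sign of Gja1 changes between scalings.

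The scanner files give a fluidics status and module per array, which were unevenly spread over the groups. The status line read Started on p38 1, 2 and 3 and on LacZ 5, and Completed on p38 4 and 5 and on LacZ 1 to 4. Within Completed arrays the log2 fold changes of Dsp, Jup, Cdh2 1368642_at, Tjp1 and Gja1 1369640_at were -0.46, -0.40, -0.30, -0.26 and -0.86, and within Started arrays, where LacZ 5 stood alone, they were -0.25, -0.45, -0.25, -0.38 and -1.11. Of these, Tjp1 did not pass within Completed arrays (adjusted p = 0.0775) and within Started arrays, with 1 LacZ array, the test could hardly pass any gene. With status as a block 5 genes fell, Pkp2 being added (log2 fold change -0.36, adjusted p = 0.0289). With module as a block only Dsp fell by the brightest probe set (-0.34, adjusted p = 0.0172). Each of Dsp, Jup, Cdh2 1368642_at, Tjp1, Pkp2 and Gja1 1369640_at was lower in p38 within all 4 modules. Dsg2 was lower within 3 modules, Cdh2 1387259_at and Gjc1 within 2, and Gja1 1372002_at within 0. These differences come from the same arrays as the main fit and are no separate support for it. A module held only 1 or 2 arrays of each group, and modules 3 and 4 held 1 of each. The log2 differences ran from -0.75 to -0.07 for Jup and from -0.61 to -0.08 for Pkp2, and no test was made within a module.

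The junction genes did not all vary together from array to array. Over deviations from group means, 14 of the 28 pairs among the 8 genes had a positive Pearson r, the median r was 0.08, and 1 pair passed after adjustment over the 28. Cdh2 and Tjp1 had r = 0.847 (exact permutation p = 0.000139, adjusted 0.00389) and rho = 0.891 (exact permutation p = 0.000417, adjusted 0.0117), and r was 0.903 without p38 4 and LacZ 3. Within the 6 Completed arrays r was 0.849 for this pair (exact permutation p = 0.0208, the smallest 48 orders can give), and the 4 Started arrays were too few. Jup had r = 0.837 with Cdh2 and 0.752 with Tjp1, neither passing (adjusted exact permutation p = 0.0914 for both). For the Gja1 ratio and the GAPDH 5' over 3' ratio, r within Completed arrays was 0.977 (exact permutation p = 0.0208).

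The named genes most like Gja1 1372002_at in these deviations were Rbm47, Calhm2, Zfp275, Vapa and Cpne8, with r of 0.940, 0.925, 0.919, 0.909 and 0.908 over 10 arrays. They were picked as the highest of 10595 genes and carry no test, since the smallest p the 14400 orders allow, 6.94e-05, is too large for a single gene to pass after adjustment over so many. Without p38 5 and p38 2 these r were 0.846 to 0.909, and rho over all arrays was 0.794 to 0.952. The likeness rests on small deviations, since 1372002_at had an SD of 0.06 in p38 and 0.03 in LacZ (n = 5 each). Its level also lay near the top of the scale.

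Beyond the 8 genes, a list of 67 other genes of the disc and of cardiac conduction had 48 tested members, of which 10 fell, 2 rose and 36 did not pass, where 6.23% of all named genes were called lower and 11.6% higher. The median log2 fold change of the 48 was -0.13. This list too was chosen with earlier results of these data known, so its counts beside these shares are no test of it. For 1 of the falls (Ppl) and 1 of the rises (Pkp1) the lower group lay below the brightness limit, so that each entered the test only through the group where it was high. Without both, 9 fell and 1 rose. Of 10 tested ion channel and anchor genes 5 fell and none rose, and all 10 values were negative (median -0.41). Ank3 and Ank2, the ankyrins that hold sodium channels and calcium-handling proteins at the membrane, had log2 fold changes of -0.56 ± 0.12 (adjusted p = 0.0126) and -0.42 ± 0.10 (adjusted p = 0.0163). Cacna1c, the pore of the L-type calcium channel, had -0.44 ± 0.10 (adjusted p = 0.0162). Kcnd2, a subunit of the transient outward potassium channel, had -0.57 ± 0.17 (adjusted p = 0.0370), and Kcnh2 also fell. For Ank3, Ank2 and Cacna1c all 5 p38 arrays lay below all LacZ arrays, as they did for 5.43% of all tested probe sets. The same held for Jam2, Popdc2 and Myzap of the scaffold and tight junction genes. The other tested probe set of Cacna1c (-0.74, adjusted p = 0.0535) and that of Kcnd2 (-0.31, adjusted p = 0.277) did not pass.

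Among 13 disc scaffold and tight junction genes 4 fell and 1 rose, beside 6.23% called lower and 11.6% higher over all named genes. Ldb3, a Z-disc protein, showed a change of -0.53 on the log2 scale (SE 0.12, adjusted p = 0.0152), and all 5 of its tested probe sets fell. Jam2, a junctional adhesion molecule of endothelium, had -0.33 ± 0.09 (adjusted p = 0.0292), with 2 of its 5 tested probe sets passing. Popdc2, a membrane protein that binds cyclic AMP, had -0.27 ± 0.08 (adjusted p = 0.0343), and Myzap, which binds zonula occludens protein and desmoplakin, fell as well. Xirp1, an actin-binding protein of the disc, rose with 0.60 ± 0.18 (adjusted p = 0.0369).

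Of 6 other desmosomal genes and desmin, 4 did not pass. The other two, Pkp1 and Ppl, are those with a group below the brightness limit of 5.80, and no size of change is given for them. Pkp1, a plakophilin best known from skin, averaged 6.48 ± 0.49 in p38 and 5.28 ± 0.71 in LacZ. Ppl, the desmosomal cytolinker periplakin, averaged 5.51 ± 0.62 in p38 and 6.43 ± 0.25 in LacZ (SD, n = 5 each). None of 8 tested adherens junction genes, 3 other connexin genes and 8 regulators of junction genes passed at the brightest probe set. A dimmer probe set passed for Gja3 (-0.67), Ctnnb1 (-0.47), Afdn (-0.60) and Nedd4 (-0.44), which were named after their values were seen.

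**Figure D5:**
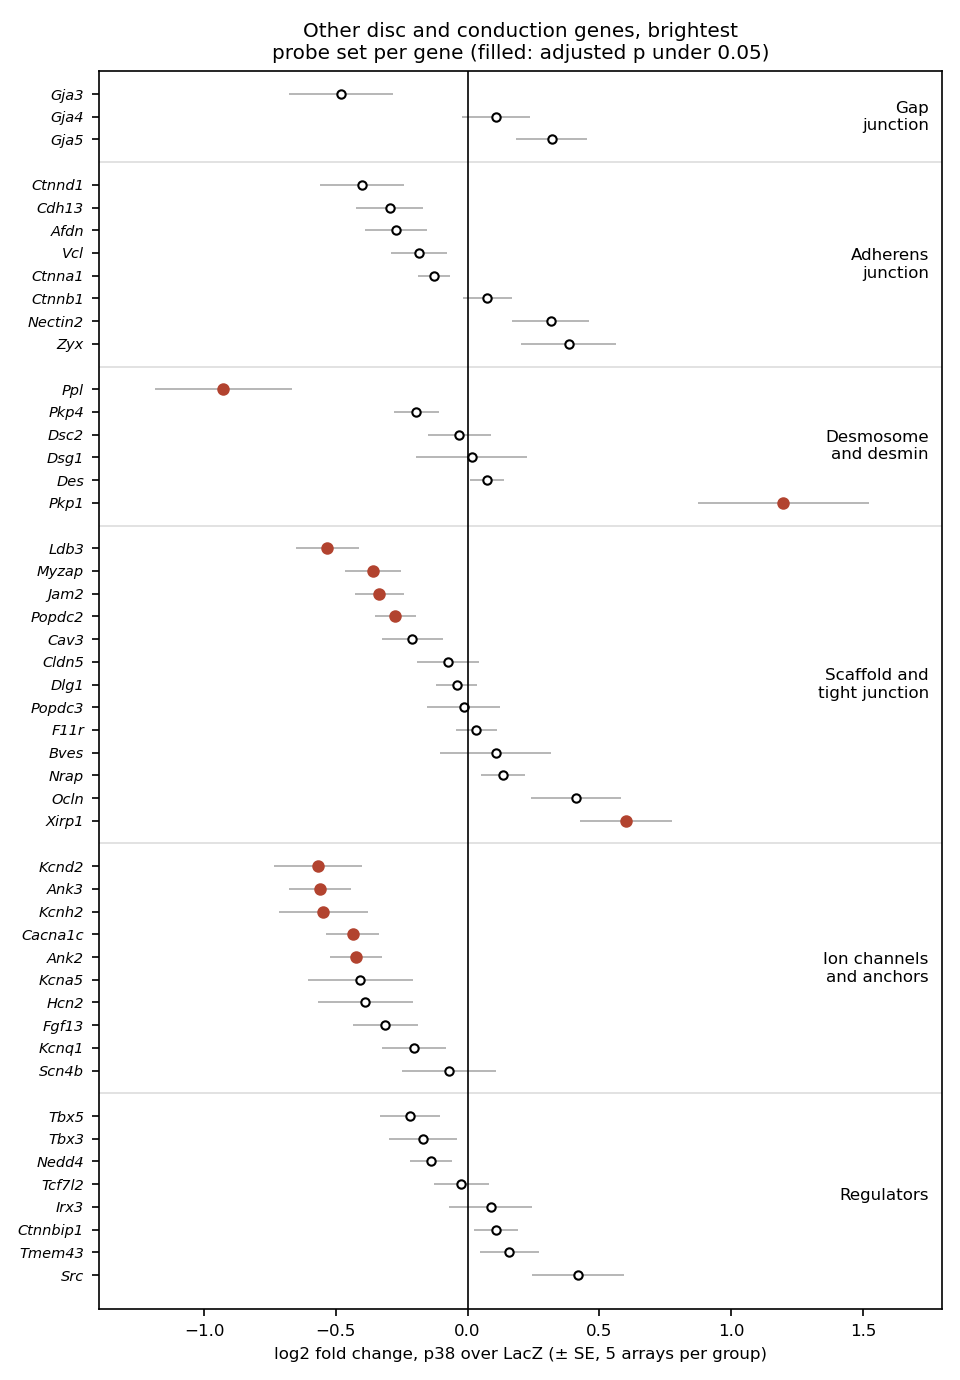
Log2 fold change of p38 over LacZ with its standard error at the brightest probe set of the 48 tested genes of the wider disc and conduction list, grouped by role; filled points passed at an adjusted p under 0.05. All 10 ion channel and anchor genes lie left of 0 and 5 are filled, while no point is filled among gap junction, adherens junction and regulator genes. Ppl and Pkp1 are drawn as filled points, but each has a group below the brightness limit, so the size of their change is not to be read.

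Markers of the cell types in the tissue were read beside these changes, where 6.23% of all named genes were called lower and 11.6% higher. Cardiomyocyte markers were bright on all arrays, with 1 of 11 tested higher (Csrp3), 3 lower (Mybpc3, Ryr2 and Actn2) and a summed level of 125262 to 130643 in p38 and 129855 to 132652 in LacZ. The median log2 fold change of the 11 was -0.03, with -0.22, -0.26 and -0.26 for Mybpc3, Ryr2 and Actn2, 0.25 for Csrp3 and -0.09 to 0.04 for the other 7. Of 6 tested macrophage markers 3 were higher (summed level 7816 to 14437 in p38 and 6412 to 8768 in LacZ), and the leukocyte gene Ptprc was higher by 1.01 on the log2 scale. Of 6 endothelial markers 2 were lower (6249 to 7665 in p38 and 7443 to 7941 in LacZ), of 6 smooth muscle markers 2 were higher and 1 lower (3047 to 4388 in p38 and 2939 to 3320 in LacZ), and none of 8 fibroblast markers passed (31840 to 54766 in p38 and 32183 to 46046 in LacZ). None of 3 atrial (206 to 1117 in p38 and 210.0 to 322 in LacZ), 2 tested conduction system (1179 to 1587 in p38 and 987 to 1512 in LacZ) and 2 tested mesothelial and epithelial markers passed (232 to 341 in p38 and 282 to 322 in LacZ), and the epithelial genes Krt8, Krt18, Krt19, Cdh1 and Epcam, the adipocyte and the skeletal muscle markers were too dim to be tested. Centred on the cardiomyocyte markers, the log2 fold changes were -0.27 for Dsp (adjusted p = 0.0110) and -0.38 for Jup (adjusted p = 0.0369), and Cdh2 and Tjp1 did not pass. Most of these markers lie near the top of the scale and hardly vary between arrays, with Myl3 at 13.71 ± 0.03 in p38 and 13.72 ± 0.00 in LacZ (SD, n = 5 each), so this centring is no test of cell number. The part of shifts in cell types in the falls of the junction genes was not tested.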

How the data were processed

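Linear intensity values, 1 for each probe set of each array, were deposited by the authors, who made them with GCOS 1.2, per the submitters' processing notes. The scaling target is unknown here, and array medians of 60.5 to 88.5 show no common scale. Fluidics status and module, which carry no measured unit (other), were read per the file headers of the deposited scanner files. Signals were taken as log2(signal + 16), without the 57 control probe sets, and quantile normalized. The dimmest 40% by mean were left out, which left 18625. The p38 and LacZ arrays were fitted with limma 3.58.1 (R 4.3.3; lmFit, then eBayes allowing a trend of variance with intensity), and two-sided p-values were adjusted by Benjamini-Hochberg. Steps were tested on simulated data. Single values were tested by exact permutation (scipy 1.17.1). Of 31099 probe sets, 20832 named 1 gene, 436 several and 9831 none. Genes named are the 9 junction genes, those of the wider list past the threshold (values for at most 10) and the 5 genes most like Gja1, with other names said to be chosen later. The members and lists were chosen with earlier results of these data known. No 2 arrays held identical values. The number of arrays limits precision. Alternatives comprised pseudocounts, scalings, filters, variance models, array weights, blocks, arrays left out, averaged probe sets and, chosen after seeing the data, status subsets, control ratios as covariates and the ratio of 2 probe sets of a gene. Averaging took in probe sets too dim to be tested. One promoter is not reported here.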

Additional observations from a re-analysis of the deposited data

How the results depend on the processing

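The count of junction genes called lower was 4 and became 0 with the signals as deposited, 1 with median centring or the module block, and 2 with cyclic loess, centring on cardiomyocyte markers, no filter, no variance trend or averaged probe sets. With 1 array left out it ran from 1 to 4, being 1 without p38 2, p38 4, LacZ 1 or LacZ 3. Within Started arrays, with 1 LacZ array, it was 0, which says nothing of stability, since 3 probe sets in all were called lower there. No junction gene was called higher in any setting run. With averaged probe sets the 2 genes called lower were Jup and Gja1, while Dsp, Cdh2 and Tjp1 did not pass. Averaging its probe sets gave Gja1 a log2 fold change of -0.33 (adjusted p = 0.0474), against 0.07 at its brightest probe set. Dsp passed in 27 of 30 other settings, Jup in 22, Cdh2 1368642_at in 15, Tjp1 in 11, Pkp2 in 3, and Gja1 1369640_at in 26 of 29. The averaged Dsp, -0.13 (adjusted p = 0.384), takes in a probe set too dim to be tested, as do the averages of Gja1, Cdh2 and Tjp1. With a replicate block 4 genes fell and no call changed (adjusted p 0.00941 for Dsp and 0.0171 for Jup). Same-numbered arrays correlated by -0.13 to 0.28 and best with their own number in 2 of 5 cases, so the numbers were not taken as pairs.

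Of the wider list, 10 genes fell and 2 rose, or 9 and 1 without Ppl and Pkp1, each with a group below the brightness limit. The counts of this list below do not leave these genes out. The falls were 1 with the signals as deposited, 6 with median centring, 5 with no filter, 6 with no variance trend, 17 within Completed arrays, 0 within Started arrays and 4 to 14 with 1 array left out. The rises were 1 with the signals as deposited, no filter, the dimmest 60% left out, no variance trend, the module block or the hexokinase covariate, 5 with array weights, 9 within Completed arrays, 0 within Started arrays and 0 to 4 with 1 array left out. Over all probe sets 1378 fell and 1601 rose. The falls were 87 with the signals as deposited, 776 with median centring, 879 centred on cardiomyocyte markers, 865 with no filter, 2577 with array weights, 901 with averaged probe sets, 3636 within Completed arrays, 3 within Started arrays and 539 to 2147 with 1 array left out. The rises were 955 with the signals as deposited, 2618 with array weights, 3057 within Completed arrays, 2 within Started arrays and 686 to 2315 with 1 array left out. The cause of these shifts was not tested. The number of arrays limits the precision of every value, and changes of dim probe sets are understated by the added constant.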
